A study of Homo sapiens with 14 samples.

Results

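Aminoacyl-tRNA synthetases are the enzymes that join each amino acid to its own transfer RNA before translation. The 35 genes described here were taken as a fixed list of symbols and matched to Ensembl identifiers, 35 of the 58825 genes in each count table. The 16 symbols ending in 2 form the mitochondrial set and the other 19 form the cytosolic set. Human cells keep these separate sets because mitochondria translate their own genome, although GARS1 and KARS1, counted here as cytosolic, also make the mitochondrial glycine and lysine enzymes. In human cells several cytosolic synthetase genes are known targets of ATF4, the transcription factor translated when amino acids are short or the integrated stress response is active, and such genes often carry a C/EBP-ATF response element near the start of transcription. The mitochondrial set is not commonly described as part of that response.

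RNA was sequenced from OVCAR-3, CAOV3 and SKOV3, established human ovarian cancer cell lines. Cells received GSK-J4 at 2.5 µM, which enters cells and inhibits UTX and JMJD3, enzymes that remove methyl groups from lysine 27 of histone H3, or GSK-J5, a regioisomer that serves as the inactive control compound. The groups were OVCAR-3 with GSK-J4 or GSK-J5 for 48 h (2 libraries each) and OVCAR-3, CAOV3 and SKOV3 with GSK-J4 or GSK-J5 for 72 h (3 libraries each). All groups had one of the compounds, so every effect is that of GSK-J4 over GSK-J5, with no untreated cells. Each line was grown in its own medium. Replicates 1 and 2 formed a first library set, grown per the labels in stripped medium. Replicate 3 was a later set with another RNA extraction kit, poly(A) selection and medium with serum. Whether replicates came from separate cultures is not in the labels. The p-values therefore cover the spread among these libraries alone, which may be technical.

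The 22 libraries held 24037007 to 37990707 counts each. Of 4 epithelial markers (EPCAM, KRT8, KRT18 and CDH1), all 4 reached 1 CPM (the count of a gene scaled to the size of its library) in every group, with sums of 619 to 876 CPM in SKOV3 with GSK-J4 and 662 to 865 CPM in SKOV3 with GSK-J5, the lowest of the lines. Of 4 ovarian and Müllerian markers, WT1 stayed under 1 CPM in CAOV3 and MUC16 in SKOV3. The 3 leukocyte markers summed to between 0.168 and 5.05 CPM in OVCAR-3 and SKOV3, and to 77.9 to 105 CPM with GSK-J4 and 54.2 to 109 CPM with GSK-J5 in CAOV3, where CD14 alone of them passed 1 CPM. The 3 endothelial markers summed to at most 6.97 CPM, with CDH5 under 1 CPM in all groups. The 3 fibroblast markers summed to 409 to 494 CPM with GSK-J4 and 362 to 477 CPM with GSK-J5 in SKOV3, where DCN alone stayed under 1 CPM, and to at most 56.6 CPM in the other lines, where DCN and LUM stayed under it. The part of these markers in the results was not tested. One set of libraries stood apart. In OVCAR-3 at 72 h, replicate 3 did not follow replicates 1 and 2 for these enzymes under either compound, as the values below show, so the 72 h results in that line are given with and without it.

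The promoters of CARS1, AARS1, GARS1 and TARS1 are printed because they were the members with a match to the response element letters that had the highest median effect over the 4 comparisons. The windows are those of RefSeq on GRCh38.p14, from 250 bases before to 50 bases after the annotated start of a transcript, in the gene's own direction. Capitals mark the match to TGATGNAA, which in each of these windows lies on the opposite strand and so appears as its reverse complement. The CARS1 window lies at chr11:3057374-3057673 on the minus strand and its match begins 2 bases before the start. The AARS1 window lies at chr16:70289457-70289756 on the minus strand and its match begins 187 bases before the start. The GARS1 window lies at chr7:30594628-30594927 on the plus strand and its match begins 33 bases before the start. The TARS1 window lies at chr5:33440715-33441014 on the plus strand and its match begins 2 bases after the start.
CARS1: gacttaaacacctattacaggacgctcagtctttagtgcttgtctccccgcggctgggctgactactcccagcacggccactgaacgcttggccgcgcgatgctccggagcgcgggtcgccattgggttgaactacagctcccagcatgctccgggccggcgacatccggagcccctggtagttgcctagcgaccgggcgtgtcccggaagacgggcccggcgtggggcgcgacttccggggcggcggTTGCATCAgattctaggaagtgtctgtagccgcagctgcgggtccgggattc
AARS1: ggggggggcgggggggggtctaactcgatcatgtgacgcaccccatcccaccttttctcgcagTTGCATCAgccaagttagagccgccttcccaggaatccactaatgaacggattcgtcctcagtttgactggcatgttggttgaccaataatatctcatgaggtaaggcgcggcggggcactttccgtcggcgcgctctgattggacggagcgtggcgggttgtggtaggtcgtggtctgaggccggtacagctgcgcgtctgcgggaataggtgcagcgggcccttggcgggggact
GARS1: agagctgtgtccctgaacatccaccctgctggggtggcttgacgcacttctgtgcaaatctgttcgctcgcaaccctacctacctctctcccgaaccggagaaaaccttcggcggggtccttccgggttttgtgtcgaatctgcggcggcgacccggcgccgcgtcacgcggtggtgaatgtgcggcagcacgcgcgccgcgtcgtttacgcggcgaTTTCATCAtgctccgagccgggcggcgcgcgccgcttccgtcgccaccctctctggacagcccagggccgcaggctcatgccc
TARS1: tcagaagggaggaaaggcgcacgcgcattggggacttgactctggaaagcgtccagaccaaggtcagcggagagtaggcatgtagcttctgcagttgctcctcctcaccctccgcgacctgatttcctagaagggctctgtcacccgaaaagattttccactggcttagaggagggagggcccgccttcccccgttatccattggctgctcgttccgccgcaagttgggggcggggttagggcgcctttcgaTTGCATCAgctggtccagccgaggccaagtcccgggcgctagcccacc

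Of the 35 members, 30 had at least 1 RefSeq window. The letters were found in 7 of 16 cytosolic genes with a window (43.8%), in 1 of 14 mitochondrial genes (7.14%, YARS2) and in 1217 of 27305 genes of the whole RefSeq table (4.46%). Counted by window, these were 7 of 21, 1 of 18 and 1270 of 35116, or 33.3%, 5.56% and 3.62%. The 7 cytosolic genes were AARS1, CARS1, GARS1, IARS1, MARS1, NARS1 and TARS1. SARS1 and WARS1 had no match in their windows, which says only that these letters are not in those bases.

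In OVCAR-3 after 48 h, 8 of 19 cytosolic synthetase mRNAs rose with GSK-J4 and none fell, against 11.3% of all 17402 genes tested that were called higher and 7.63% called lower. The 8 were AARS1, SARS1, WARS1, YARS1, CARS1, IARS1, MARS1 and NARS1, with edgeR log2 fold changes from 0.91 to 2.24. None of the 16 mitochondrial synthetases passed the test in either direction. The median log2 fold change was 1.12 over the cytosolic set and -0.09 over the mitochondrial set, against -0.03 over all genes tested. Calls here are adjusted p-values below 0.05 from the quasi-likelihood test of edgeR, with Benjamini-Hochberg adjustment over all genes tested.

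The summed level of the 19 cytosolic mRNAs was 6231 and 6231 CPM with GSK-J4 and 2629 and 2626 CPM with GSK-J5. Levels are CPM scaled by TMM, which corrects library totals for the make-up of each library. The summed level of the 16 mitochondrial mRNAs was 537 and 527 CPM with GSK-J4 and 568 and 579 CPM with GSK-J5. The cytosolic sum was therefore higher in both GSK-J4 libraries by more than the spread between them. The mitochondrial sum was lower in both GSK-J4 libraries, also by more than that spread, but by a much smaller amount. In bulk libraries, more RNA per cell and a changed share of cells cannot be told apart.

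AARS1, alanyl-tRNA synthetase at chr16:70252295-70289543 on the minus strand, was at 438 and 429 CPM with GSK-J4 and at 90.1 and 93.9 CPM with GSK-J5. Its log2 fold change was 2.24 (SE 0.48), a 4.71-fold rise, with an adjusted p of 0.026 by edgeR. The groups did not overlap for this gene, whose promoter is printed above. SARS1, seryl-tRNA synthetase at chr1:109213918-109238169 on the plus strand, was at 568 and 520 CPM with GSK-J4 and at 120 and 122 CPM with GSK-J5, a log2 fold change of 2.16 (SE 0.56, edgeR adjusted p = 0.038). WARS1, the tryptophan enzyme at chr14:100333788-100376805 on the minus strand, which interferon is also known to induce, was at 396 and 384 CPM with GSK-J4 and at 97.5 and 92.6 CPM with GSK-J5. Its log2 fold change was 2.04 (SE 0.53, edgeR adjusted p = 0.038). All 3 enzymes were roughly as high in one GSK-J4 library as in the other.

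The smaller called changes were those of IARS1, MARS1 and NARS1. IARS1, the isoleucine enzyme, was at 459 and 548 CPM with GSK-J4 and at 204 and 198 CPM with GSK-J5, a log2 fold change of 1.33 (SE 0.35, edgeR adjusted p = 0.039). MARS1, the methionine enzyme, was at 517 and 507 CPM with GSK-J4 and at 230 and 241 CPM with GSK-J5, a log2 fold change of 1.12 (SE 0.20, edgeR adjusted p = 0.019). Exons of MARS1 overlap those of DDIT3 on the opposite strand over 5.05% of their length. DDIT3 was at 107 and 65.9 CPM with GSK-J4 and at 4.12 and 3.39 CPM with GSK-J5, and whether its reads entered the MARS1 count was not tested. NARS1, the asparagine enzyme, was at 291 and 293 CPM with GSK-J4 and at 154 and 157 CPM with GSK-J5, a log2 fold change of 0.91 (SE 0.26, edgeR adjusted p = 0.046).

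YARS1 and CARS1, the tyrosine and cysteine enzymes, also rose, by 1.98 and 1.97 on the log2 scale (edgeR adjusted p = 0.040 and 0.037). In all, 16 of 19 cytosolic genes had both GSK-J4 libraries above both GSK-J5 libraries and 1 had them below, against 39.2% of all genes tested above and 42.0% below. Among the 8 of these without a call was GARS1 at 408 and 422 CPM with GSK-J4 and at 130 and 129 CPM with GSK-J5. Their adjusted p-values missed the threshold, as for TARS1 (log2 fold change 1.33, edgeR adjusted p = 0.0502) and EPRS1 (1.27, edgeR adjusted p = 0.0501). HARS1 and QARS1 overlapped between the compounds, with log2 fold changes of 0.02 and 0.06. RARS1, the arginine enzyme, was the one cytosolic gene whose GSK-J4 libraries lay lower, at 86.1 and 88.5 CPM with GSK-J4 and at 112 and 110 CPM with GSK-J5, with an edgeR log2 fold change of -0.35 and an adjusted p of 0.081.

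**Figure D1:**
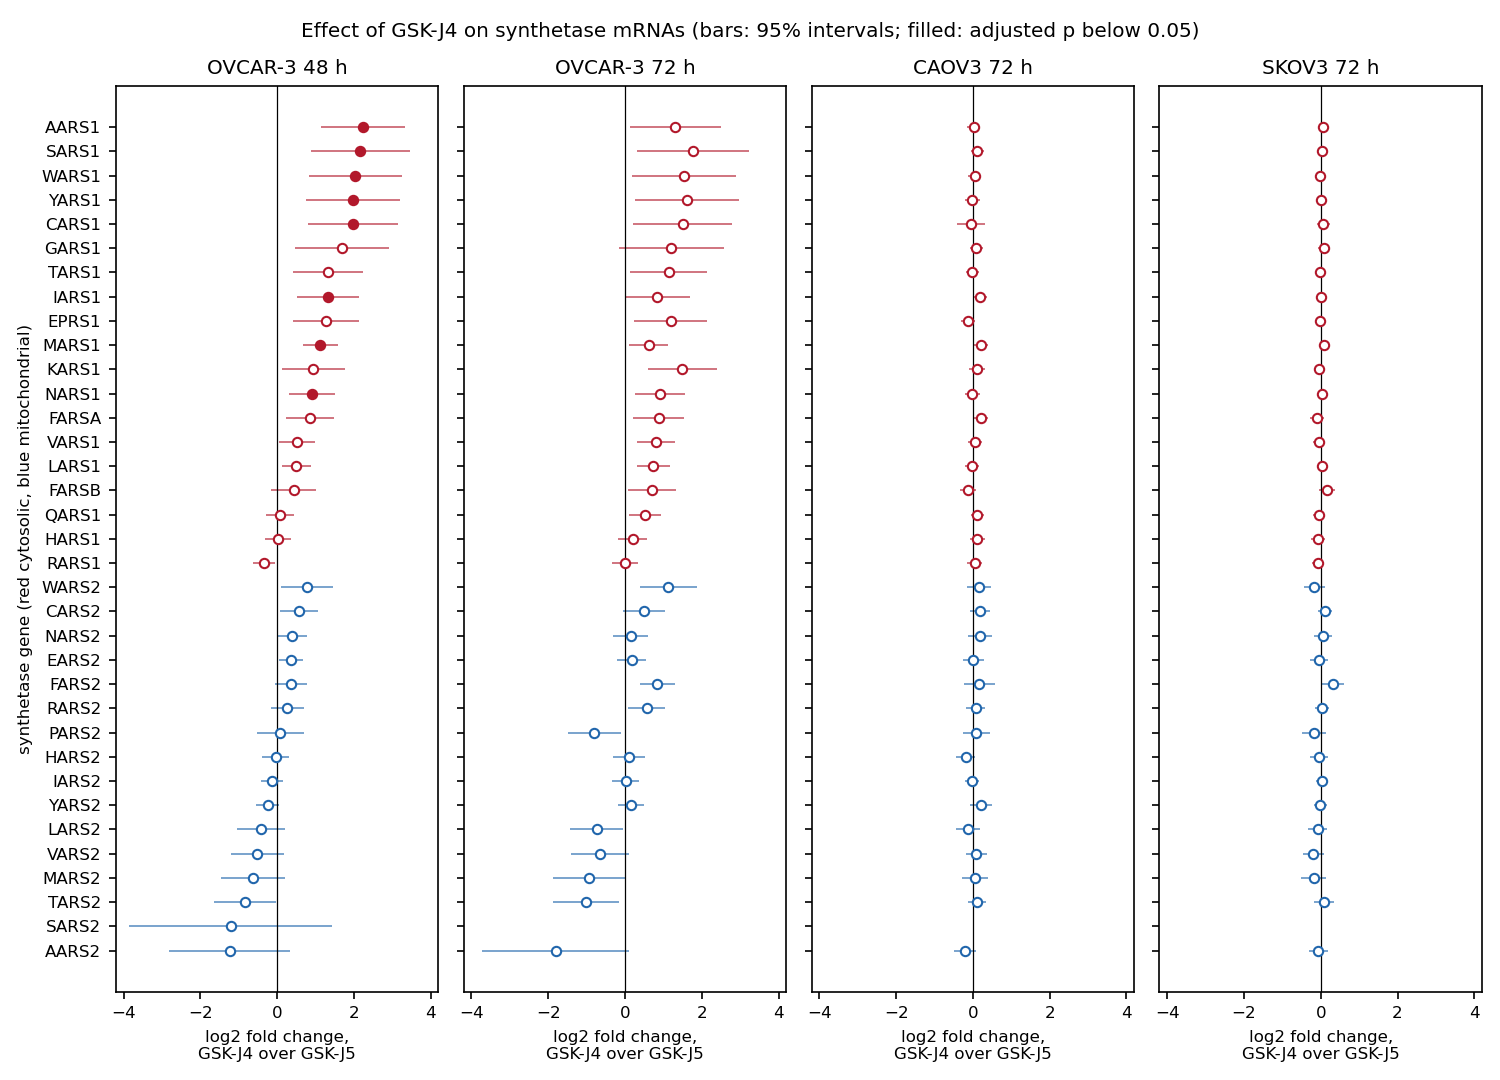
Log2 fold change of each synthetase mRNA, GSK-J4 over GSK-J5 (x axis), in the 4 comparisons, with 95% intervals as bars, cytosolic genes in red above mitochondrial genes in blue, and filled points for adjusted p-values below 0.05. At 48 h in OVCAR-3 the 8 filled points are all cytosolic, and in CAOV3 and SKOV3 the points lie close to 0. SARS2 is drawn at 48 h alone, since it had too few counts for the 72 h fits.

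The mitochondrial estimates lay on both sides of 0 at 48 h and none passed the edgeR test, while 4 of the 16 had an unadjusted p under 0.05, against 41.7% of all genes tested. Libraries did not overlap for 6 with GSK-J4 above and 8 with GSK-J4 below, near the share of all genes. DESeq2's Wald test and limma voom called none of them either. AARS2, the mitochondrial alanine enzyme at chr6:44299654-44313326 on the minus strand, was at 14.1 and 12.3 CPM with GSK-J4 and at 30.0 and 32.2 CPM with GSK-J5 (log2 fold change -1.24, SE 0.69, edgeR adjusted p = 0.20). TARS2, the threonine enzyme, was at 33.4 and 24.8 CPM with GSK-J4 and at 52.4 and 52.3 CPM with GSK-J5 (-0.85, SE 0.35, edgeR adjusted p = 0.11). In both GSK-J4 libraries, alanine, threonine, isoleucine, leucine, methionine, tyrosine and valine had a higher cytosolic and a lower mitochondrial mRNA. For cysteine, asparagine, phenylalanine and tryptophan the mRNAs of both sets were higher, and for arginine the directions were reversed. For histidine and serine a gene overlapped between the compounds. Such gaps were general, with GSK-J4 above for 39.2% of all genes and below for 42.0%. SARS2, the serine enzyme, had 2 and 6 counts with GSK-J4 and 14 and 7 counts with GSK-J5, too few to read a direction. It held 0 to 25 counts in any of the 22 libraries, and 46.18% of its exon length is shared with another gene on the same strand that was listed at 0 in all of them.

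The 48 h calls depended on which libraries shared the estimate of the spread. They came from a fit of all 10 OVCAR-3 libraries, in which replicate 3 of 72 h departs strongly from replicates 1 and 2. When replicate 3 was left out, 16 cytosolic genes rose and RARS1 fell, and 6 mitochondrial genes rose and 6 fell, with 29.1% of all genes called higher and 29.8% lower. The 6 that rose were WARS2, CARS2, NARS2, FARS2, EARS2 and RARS2, and the 6 that fell were AARS2, TARS2, MARS2, VARS2, LARS2 and YARS2. The estimates themselves hardly moved, with AARS1 at 2.23 (SE 0.080) and AARS2 at -1.24 (SE 0.15). When any single 48 h library was left out in place of replicate 3, no gene of the whole table was called, synthetases included, so these fits say nothing of the members.

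In OVCAR-3 after 72 h, the fit of all 6 libraries called none of the 19 cytosolic and none of the 15 mitochondrial genes tested, against 0.0313% of 15966 genes called higher and 0% called lower. The unadjusted edgeR p was under 0.05 for 15 cytosolic and 7 mitochondrial genes, against 44.3% of all genes, so the mitochondrial count is near the general share. DESeq2's Wald test called 17 cytosolic genes higher and none lower, and 3 mitochondrial genes higher and 3 lower, against 20.5% of all genes called higher and 18.8% lower. Limma voom called none of them. All 19 cytosolic estimates were above 0 with TMM scaling, but HARS1 and RARS1 lay below 0, at -0.19 and -0.38, with library totals in its place. The cytosolic median was 0.91, against 0.10 over the mitochondrial set and -0.07 over all genes tested.

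For the cytosolic genes with the largest estimates, replicate 3 lay far from replicates 1 and 2 under both compounds. SARS1 was at 803, 807 and 284 CPM with GSK-J4 in replicates 1, 2 and 3, and at 135, 125 and 285 CPM with GSK-J5. YARS1 was at 598, 649 and 207 CPM with GSK-J4 and at 118, 113 and 214 CPM with GSK-J5. WARS1 was at 431, 457 and 208 CPM with GSK-J4 and at 86.4, 88.5 and 228 CPM with GSK-J5. For these 3 genes replicate 3 was lower than the others with GSK-J4, higher than the others with GSK-J5, and nearly equal between the compounds. Their edgeR log2 fold changes over all 6 libraries were 1.77 (SE 0.59), 1.62 (SE 0.55) and 1.53 (SE 0.55), with adjusted p-values of 0.080, 0.083 and 0.090.

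The mitochondrial genes with the largest estimates showed the same split between library sets. AARS2 was at 5.35, 3.51 and 25.5 CPM with GSK-J4 in replicates 1, 2 and 3, and at 31.8, 31.2 and 17.9 CPM with GSK-J5 (log2 fold change -1.81, SE 0.77, edgeR adjusted p = 0.13). TARS2 was at 20.1, 16.5 and 37.0 CPM with GSK-J4 and at 52.2, 49.8 and 36.3 CPM with GSK-J5 (-1.01, SE 0.35, edgeR adjusted p = 0.084). WARS2, the mitochondrial tryptophan enzyme, was at 38.2, 48.4 and 20.6 CPM with GSK-J4 and at 14.3, 14.9 and 16.3 CPM with GSK-J5 (1.13, SE 0.30, edgeR adjusted p = 0.070). WARS2 was higher with GSK-J4 in all 3 replicates, while AARS2 lay lower in replicates 1 and 2 and higher in replicate 3.

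The summed cytosolic level was 7506, 8071 and 3877 CPM with GSK-J4 in replicates 1, 2 and 3, and 2539, 2524 and 3756 CPM with GSK-J5. The summed mitochondrial level was 542, 573 and 544 CPM with GSK-J4 and 558, 542 and 500.3 CPM with GSK-J5. Between same-numbered libraries, the median cytosolic log2 ratio was 1.31 in replicate 1, 1.53 in replicate 2 and 0.03 in replicate 3. Over the mitochondrial genes it was 0.07, 0.27 and 0.11. In replicate 3, 10 of 19 cytosolic ratios were above 0, against 18 of 19 in replicate 1 and 19 of 19 in replicate 2.

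**Figure D2:**
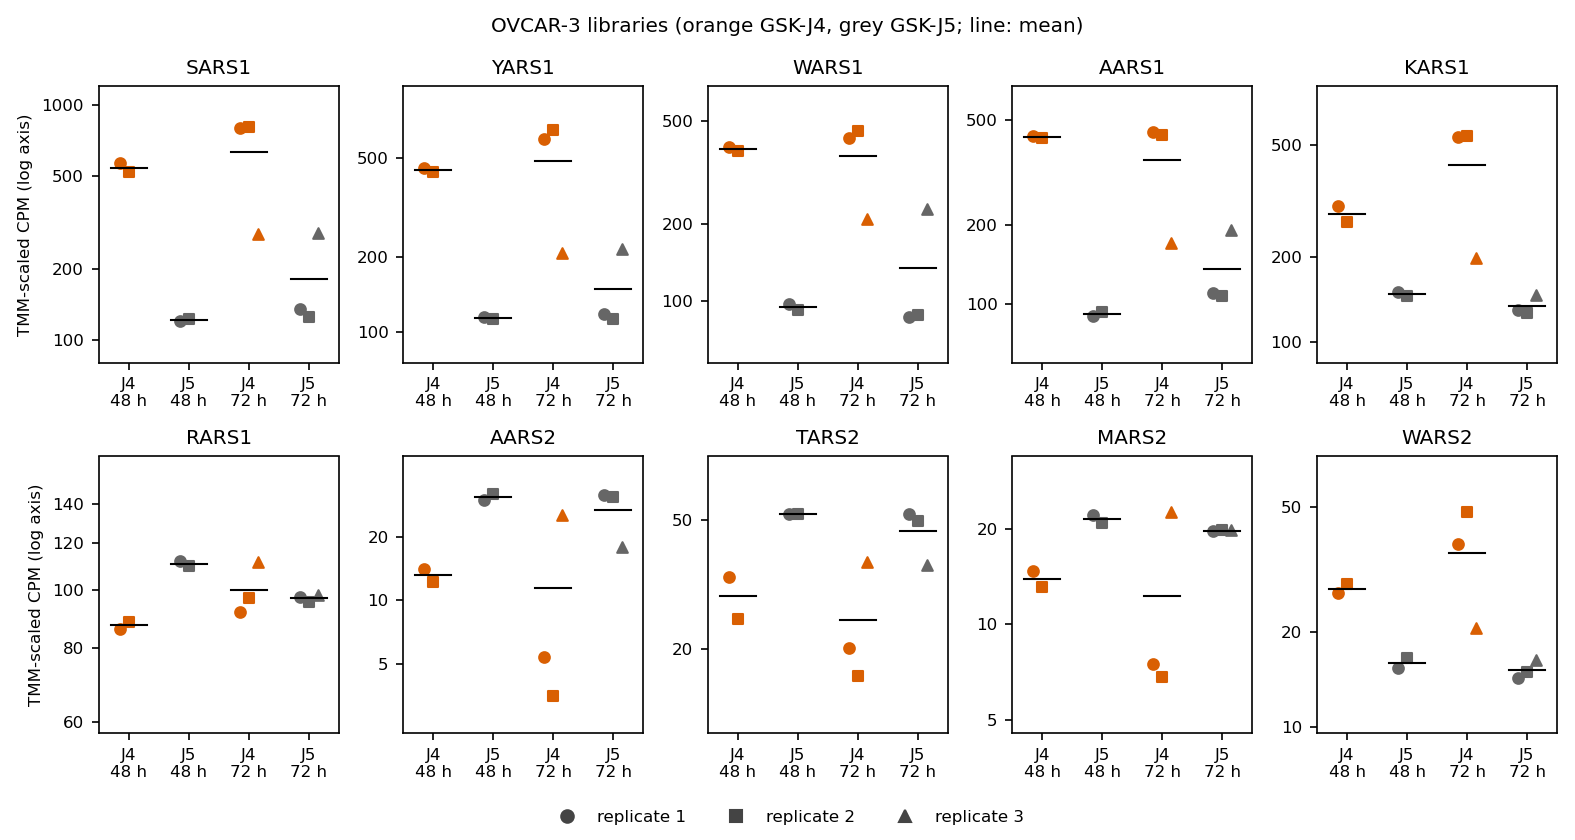
TMM-scaled CPM (log axis) of 10 synthetase mRNAs in each OVCAR-3 library, GSK-J4 in orange left of GSK-J5 in grey at 48 h and 72 h, with symbols for replicates 1 to 3 and lines at the means. For SARS1, YARS1, WARS1 and AARS1 the 72 h triangles of replicate 3 lie near each other, between the GSK-J4 and GSK-J5 values of replicates 1 and 2.

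**Figure D3:**
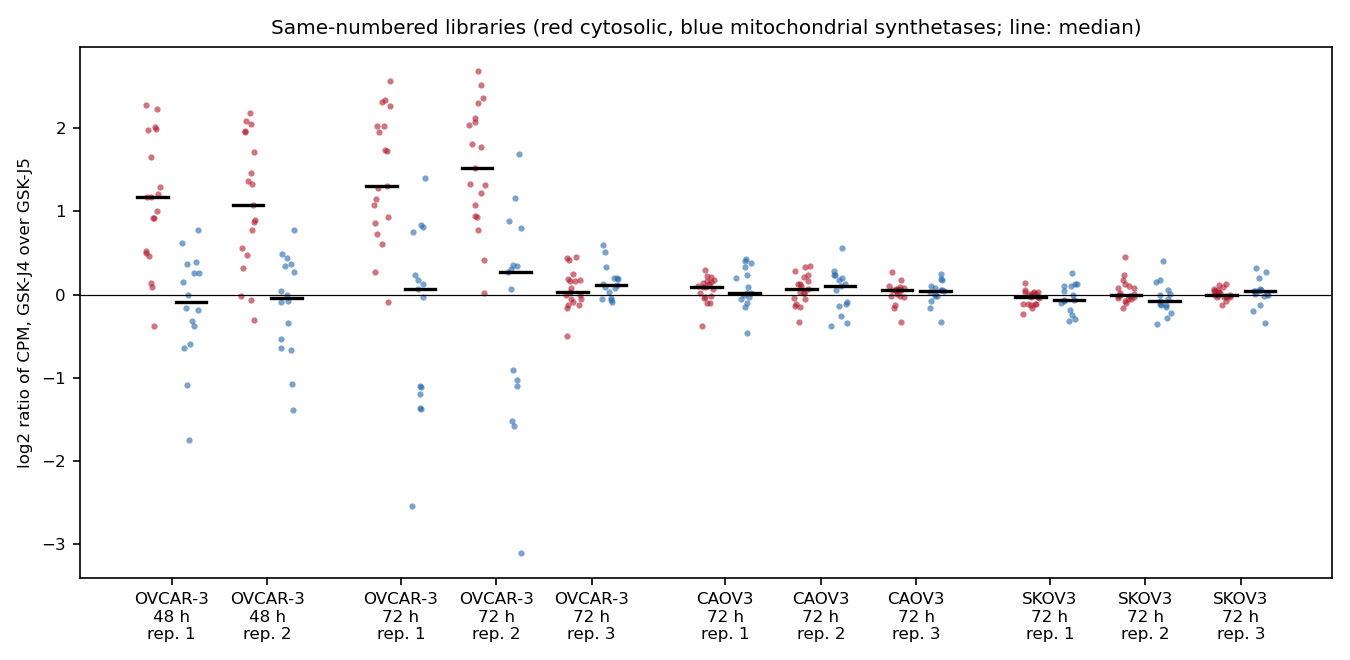
Log2 ratio of CPM, GSK-J4 over GSK-J5, for each cytosolic (red) and mitochondrial (blue) synthetase in each same-numbered pair of libraries, with lines at the medians. Medians of the cytosolic genes are 1.17 and 1.08 at 48 h and 1.31, 1.53 and 0.03 at 72 h in OVCAR-3, and lie between -0.03 and 0.09 in CAOV3 and SKOV3.

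With replicate 3 left out, 18 of 19 cytosolic genes rose in OVCAR-3 at 72 h and none fell, with 34.6% of all genes called higher and 37.1% called lower. Of 15 mitochondrial genes tested, 4 rose (WARS2, FARS2, RARS2 and CARS2) and 6 fell (AARS2, TARS2, MARS2, PARS2, LARS2 and VARS2). The mitochondrial counts were near those shares of all genes, so they are not a result particular to the set. All counts of this fit rest on 2 libraries per compound. SARS1 had the largest cytosolic log2 fold change, 2.63 (SE 0.10, edgeR adjusted p = 4.64e-07), a 6.21-fold rise. YARS1 followed at 2.44, WARS1 at 2.35 and CARS1 at 2.29. RARS1 was the cytosolic gene without a call, at -0.03 (SE 0.093, edgeR adjusted p = 0.81), and HARS1 had the smallest called rise, 0.35.

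Among the mitochondrial genes in the same fit, AARS2 fell by 2.82 on the log2 scale (SE 0.19, edgeR adjusted p = 3.07e-06). TARS2 fell by 1.47, MARS2, the methionine enzyme, by 1.46, PARS2, the proline enzyme, by 1.12, LARS2, the leucine enzyme, by 1.10 and VARS2, the valine enzyme, by 1.01. WARS2 rose by 1.57. Exons of VARS2 share 21.99% of their length with GTF2H4 on the same strand, so its count could be split between genes. IARS2, the most abundant mitochondrial member in OVCAR-3, did not pass the test, at 0.03 (SE 0.094).

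Scaling bears on the smaller of these changes. With plain library totals in place of TMM, an alternative chosen after seeing the data, the median of all genes shifted by -0.21 at 48 h, by -0.39 at 72 h and by -0.57 at 72 h without replicate 3, all on the log2 scale. At 48 h the same number of members, 8, was called higher, against 7.75% of all genes called higher and 4.78% lower with that scaling. At 72 h without replicate 3, 16 cytosolic and 2 mitochondrial genes (WARS2 and FARS2) were called higher, while RARS1 and 10 mitochondrial genes were called lower, against 19.6% of all genes called higher and 54.1% lower in that fit. HARS1 changed sign to -0.22 and QARS1 stood at 0.13, neither of them called. SARS1 rose by 2.06 and AARS2 fell by 3.40 on that scale.

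The effects at 72 h and 48 h in OVCAR-3 were compared directly as an interaction. With all 10 libraries no synthetase differed by edgeR, against 0.00575% of genes called higher and 0% called lower. The unadjusted p was under 0.05 for 4 members, against 7.35% of all genes, and DESeq2's Wald test and limma voom called none. Without replicate 3, the effect was larger at 72 h for 9 cytosolic and 4 mitochondrial genes and lower for 5 mitochondrial genes, with 11.9% of all genes called higher and 15.2% called lower.

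KARS1, the lysine enzyme, had the largest such increase. It was at 530 and 537 CPM with GSK-J4 in the first set at 72 h, against 130 and 127 CPM with GSK-J5, and at 303 and 265 CPM with GSK-J4 at 48 h, against 151 and 145 CPM with GSK-J5. The difference in effect was 1.11 on the log2 scale (SE 0.12, edgeR adjusted p = 0.00027). FARSB, a subunit of the phenylalanine enzyme, and QARS1, the glutamine enzyme, differed by 0.66 and 0.64. AARS1 did not pass the test of the difference (-0.20, SE 0.11, edgeR adjusted p = 0.21), nor did MARS1 (-0.22) or IARS1 (0.03).

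At the other end, the effect on AARS2 was lower at 72 h than at 48 h by 1.59 on the log2 scale (SE 0.22, edgeR adjusted p = 0.00073), and that on PARS2 by 1.20. PARS2 was at 7.42 and 7.58 CPM with GSK-J4 in the first set at 72 h, against 17.1 and 15.6 CPM with GSK-J5, and at 15.6 and 14.95 CPM with GSK-J4 at 48 h, against 14.0 and 15.02 CPM with GSK-J5. Its lower level was therefore measured at 72 h and not at 48 h.

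In CAOV3 at 72 h no synthetase was called by edgeR, against 0.0673% of 16351 genes called higher and 0.251% called lower, and the median log2 fold change was 0.05 over the cytosolic and 0.09 over the mitochondrial set. Unadjusted p-values under 0.05 were found for 2 members, against 16.8% of all genes, and DESeq2's Wald test and limma voom called none. All cytosolic 95% intervals lay between -0.43 and 0.40, so at this depth and spread a change as large as the 48 h rise of AARS1 in OVCAR-3 lay outside them. FARSA, the other phenylalanine enzyme subunit, had the largest cytosolic estimate, with 132, 145 and 111 CPM with GSK-J4 and 120, 114 and 98.0 CPM with GSK-J5 (log2 fold change 0.22, SE 0.087, edgeR adjusted p = 0.21). MARS1 was at 136, 139 and 116 CPM with GSK-J4 and at 110, 118 and 111 CPM with GSK-J5 (0.20, SE 0.088, edgeR adjusted p = 0.25). IARS1 was at 191, 192 and 171 CPM with GSK-J4 and at 165, 152 and 173 CPM with GSK-J5 (0.18, SE 0.089).

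Among the mitochondrial genes in CAOV3, YARS2, the tyrosine enzyme, was at 29.8, 33.4 and 26.1 CPM with GSK-J4 and at 29.4, 22.5 and 24.8 CPM with GSK-J5 (log2 fold change 0.22, SE 0.14). AARS2 was at 29.2, 31.5 and 43.4 CPM with GSK-J4 and at 40.3, 41.1 and 36.6 CPM with GSK-J5 (-0.20, SE 0.14). NARS2, the asparagine enzyme, was at 24.8, 19.9 and 16.7 CPM with GSK-J4 and at 18.5, 18.5 and 16.3 CPM with GSK-J5 (0.19, SE 0.15). Of all 35 members, HARS2 alone had its GSK-J4 and GSK-J5 libraries apart, with GSK-J4 lower, against 6.32% of all genes with GSK-J4 above and 6.82% with GSK-J4 below. Without replicate 3, IARS1 rose by 0.27 and MARS1 by 0.27, and AARS2 fell by 0.42 (edgeR adjusted p = 0.029, 0.038 and 0.033). These 2 and 1 of 34 members stand beside 6.70% of all genes called higher and 7.38% lower in that fit, so the counts are not above the general share.

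In SKOV3 at 72 h no synthetase was called by edgeR either, against 0.0249% of 16089 genes called higher and 0.0186% called lower. The median log2 fold change was 0.00 over the cytosolic and -0.04 over the mitochondrial set. One member had an unadjusted p under 0.05, against 3.56% of all genes, and DESeq2's Wald test and limma voom called none. All cytosolic intervals lay between -0.27 and 0.37. FARSB was at 53.3, 56.1 and 88.6 CPM with GSK-J4 and at 54.2, 41.0 and 83.3 CPM with GSK-J5 (log2 fold change 0.16, SE 0.097, edgeR adjusted p of 1). FARSA followed at -0.09, with 58.9, 69.8 and 85.9 CPM with GSK-J4 and 64.4, 74.7 and 87.9 CPM with GSK-J5. RARS1 stood at -0.08, with 70.0, 74.5 and 84.8 CPM with GSK-J4 and 71.5, 78.5 and 92.6 CPM with GSK-J5. Both overlapped between the compounds. FARS2, the mitochondrial phenylalanine enzyme, was at 16.6, 14.9 and 19.9 CPM with GSK-J4 and at 13.8, 11.2 and 15.9 CPM with GSK-J5 (0.33, SE 0.14), and the groups overlapped. VARS2 was at 15.4, 19.3 and 20.3 CPM with GSK-J4 and at 18.3, 21.4 and 23.3 CPM with GSK-J5 (-0.19), and MARS2 at 7.03, 7.88 and 18.3 CPM with GSK-J4 and at 8.03, 10.1 and 18.3 CPM with GSK-J5 (-0.18).

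Several SKOV3 levels followed the library set under both compounds. VARS1, the valine enzyme, was at 77.0, 89.6 and 211 CPM with GSK-J4 in replicates 1, 2 and 3, and at 83.2, 92.8 and 213 CPM with GSK-J5. AARS1 ran the other way, at 1047, 1145 and 738 CPM with GSK-J4 and at 1033, 1083 and 712 CPM with GSK-J5. In SKOV3 the sets thus differed in level and the compounds hardly did.

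The compound effect was then compared between lines at 72 h in a fit of 18 libraries, which shares the estimate of the spread over the 3 lines. In that fit the OVCAR-3 effect alone had 21.2% of all genes called higher and 19.1% lower. With the 6 libraries of OVCAR-3 alone the shares were 0.0313% and 0%. The calls below rest on that shared spread. The effect in OVCAR-3 exceeded that in CAOV3 for 12 cytosolic genes and WARS2, and was lower for TARS2, against 13.2% of 19274 genes called higher and 7.74% called lower. It exceeded that in SKOV3 for 14 cytosolic genes and WARS2, and was again lower for TARS2, against 13.5% called higher and 9.08% called lower. With the replicate number as a block, 3 members were called higher against CAOV3 and 4 against SKOV3, and none lower in either. Same-numbered libraries of SKOV3 deviated together, as did differently numbered libraries of its first set. Same-numbered libraries of OVCAR-3 at 72 h did not. Both comparisons use the same OVCAR-3 libraries, so they are not independent. No member differed between CAOV3 and SKOV3 by edgeR (0% of genes called higher and 0% lower), none had an unadjusted p under 0.05, and DESeq2's Wald test called none.

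The difference was widest for SARS1, at 1.65 (SE 0.48, edgeR adjusted p = 0.028) against CAOV3 and 1.72 (SE 0.48, edgeR adjusted p = 0.023) against SKOV3. In CAOV3, SARS1 was at 266, 258 and 236 CPM with GSK-J4 and at 246, 222 and 229 CPM with GSK-J5. In SKOV3 it was at 588, 674 and 756 CPM with GSK-J4 and at 586, 625 and 748 CPM with GSK-J5. The level in SKOV3 with either compound thus lay between the GSK-J5 and GSK-J4 values of the first set in OVCAR-3.

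YARS1 differed by 1.63 against CAOV3 and 1.61 against SKOV3 (SE 0.45 in each, edgeR adjusted p = 0.023 and 0.024). It was at 111, 107 and 109 CPM with GSK-J4 in CAOV3, against 119, 111 and 102 CPM with GSK-J5, and at 401, 436 and 413 CPM with GSK-J4 in SKOV3, against 434, 399.7 and 415 CPM with GSK-J5. CARS1 differed by 1.55 against CAOV3, where it was at 19.2, 15.8 and 24.0 CPM with GSK-J4 and at 25.0, 15.5 and 19.9 CPM with GSK-J5. In OVCAR-3 at 72 h CARS1 was at 209, 217 and 76.7 CPM with GSK-J4 and at 43.2, 43.9 and 81.5 CPM with GSK-J5. WARS1 differed by 1.55 against SKOV3, where it was at 558, 546 and 564 CPM with GSK-J4 and at 605, 547 and 545 CPM with GSK-J5. For these enzymes the compounds overlapped in both other lines.

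The smallest called differences against CAOV3 were those of LARS1 and VARS1, at 0.77 each, and against SKOV3 those of MARS1 at 0.55 and QARS1 at 0.57. LARS1, the leucine enzyme, was at 281, 304 and 217 CPM with GSK-J4 in OVCAR-3, against 147, 158 and 162 CPM with GSK-J5, and at 119, 119 and 120.3 CPM with GSK-J4 in CAOV3, against 117, 131 and 116 CPM with GSK-J5. QARS1 was at 280.4, 309.8 and 269 CPM with GSK-J4 in OVCAR-3, against 183, 180.0 and 227 CPM with GSK-J5, and at 66.2, 72.4 and 98.4 CPM with GSK-J4 in SKOV3, against 67.9, 74.6 and 104 CPM with GSK-J5. For LARS1 and QARS1, unlike SARS1, all 3 GSK-J4 libraries of OVCAR-3 lay above the GSK-J5 libraries, replicate 3 included.

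WARS2 exceeded its effect in CAOV3 by 0.98 and that in SKOV3 by 1.29 (edgeR adjusted p = 0.030 and 0.011). It was at 16.7, 17.0 and 20.7 CPM with GSK-J4 in CAOV3, against 16.5, 14.0 and 18.2 CPM with GSK-J5, and at 17.3, 15.6 and 15.5 CPM with GSK-J4 in SKOV3, against 21.3, 18.3 and 14.98 CPM with GSK-J5. The compounds overlapped in both lines. TARS2 had differences of -1.10 and -1.09 (edgeR adjusted p = 0.042 and 0.041). In CAOV3 TARS2 was at 53.2, 45.3 and 53.1 CPM with GSK-J4 and at 46.5, 48.2 and 46.7 CPM with GSK-J5, and in SKOV3 at 17.2, 22.1 and 35.1 CPM with GSK-J4 and at 18.5, 21.3 and 29.1 CPM with GSK-J5. Without replicate 1 or 2 no member was called in either difference, in fits that called at most 1 gene of the whole table. Without replicate 3 the counts against CAOV3 were 20 members higher and 6 lower, against 20.0% of all genes higher and 21.5% lower. With library totals in place of TMM, 6 members differed upward from CAOV3 and 9 from SKOV3, against 6.64% and 6.31% of all genes, and TARS2 stayed lower in both.

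Levels between genes were compared with GSK-J5 at 72 h as CPM per kb of the median transcript length. TMM was computed within each line, so levels set across lines carry that limit. The median cytosolic level was 52.4 CPM per kb in OVCAR-3, 53.8 in CAOV3 and 90.2 in SKOV3, and the median mitochondrial level was 7.09, 8.87 and 9.35. On this measure MARS1 was the highest cytosolic gene in OVCAR-3 at 181 ± 27.1 CPM per kb, GARS1 in CAOV3 at 199 ± 5.11 and SARS1 in SKOV3 at 350 ± 45 (SD, n = 3 each). The length used was 1399.5 bases for MARS1 (median of 4 coding transcripts) and 1479 bases for GARS1 (2 transcripts). Their exons cover 7028 and 4152 bases. A short annotated transcript raises the level per kb, so ranks between genes depend on the length chosen. The next gene in OVCAR-3, TARS1, and GARS1 behind it did not differ from each other beyond their spread. IARS2 had the highest mean of the mitochondrial genes in all 3 lines, at 47.7 ± 1.11 in OVCAR-3, 32.3 ± 1.52 in CAOV3 and 35.9 ± 3.49 in SKOV3 (SD, n = 3 each). In SKOV3 YARS2, at 35.1 ± 9.03 (SD, n = 3), did not differ from it beyond their spread.

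Leaving SARS2 aside, AARS1 had the widest ratio of mean levels between lines, at 39.2 ± 13.7 CPM per kb in OVCAR-3, 65.1 ± 2.42 in CAOV3 and 271 ± 57.8 in SKOV3 (SD, n = 3 each). WARS1 was at 53.5 ± 32.3, 177 ± 4.64 and 226 ± 13.5 in the same order. In OVCAR-3 the GSK-J5 library of replicate 3 held more of both mRNAs than the other two. These between-line levels were given as a description, with no test.

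**Figure D4:**
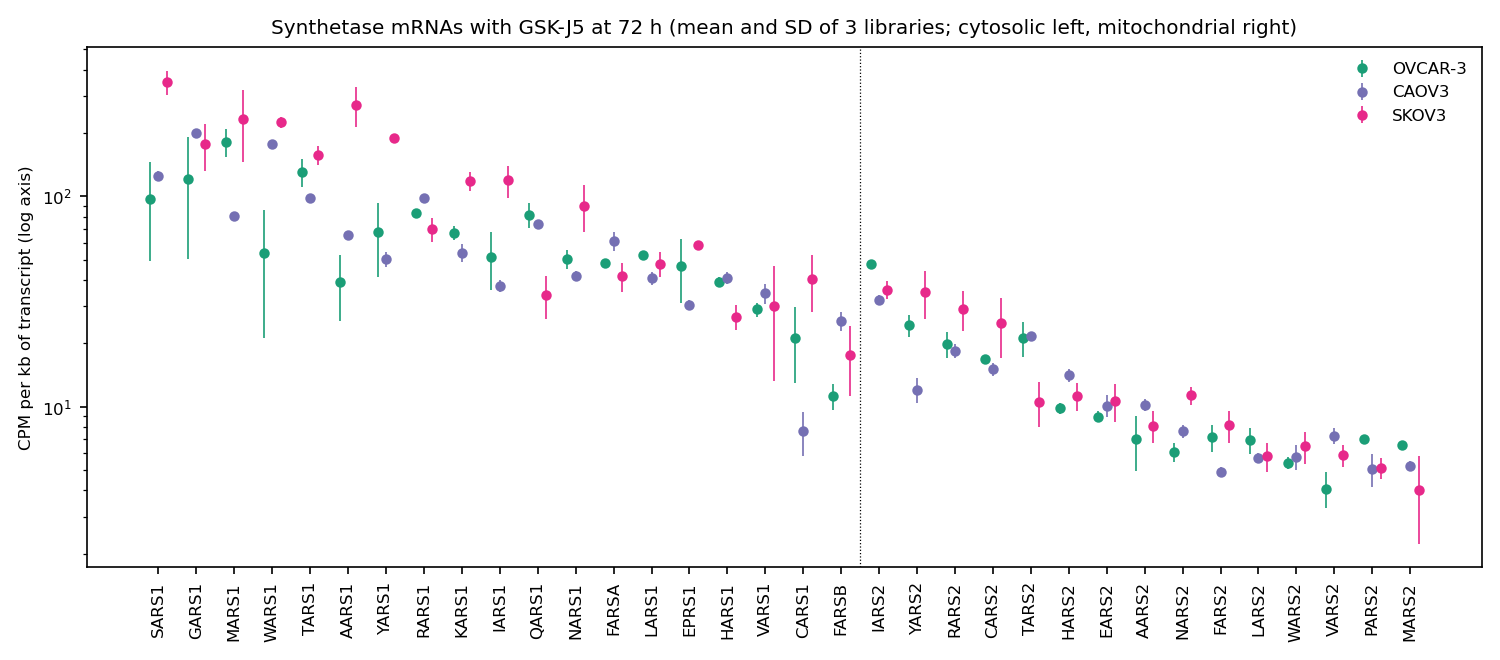
Level of each synthetase mRNA with GSK-J5 at 72 h, as CPM per kb of transcript on a log axis, mean and SD of 3 libraries for OVCAR-3, CAOV3 and SKOV3, cytosolic genes left of the dotted line and mitochondrial genes right of it. SARS2 is left out because it held 25 counts or fewer in any library. Median cytosolic levels are 52.4, 53.8 and 90.2 and median mitochondrial levels 7.09, 8.87 and 9.35 in the 3 lines.

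Within the cytosolic set, the 7 enzymes of the multisynthetase complex (EPRS1, IARS1, LARS1, MARS1, QARS1, RARS1 and KARS1), a particle that holds several synthetases on shared scaffolds, had a median log2 fold change of 0.94 at 48 h in OVCAR-3, with 2 called. The other 12 had a median of 1.51, with 6 called. At 72 h without replicate 3 the medians were 0.94 with 6 called in the complex and 1.90 with 12 called outside it. The complex held both the cytosolic gene with the lowest estimate, RARS1, and KARS1, one of the higher ones at 72 h. Of the scaffold genes AIMP1, AIMP2 and EEF1E1, AIMP2 rose at 48 h (1.35, edgeR adjusted p = 0.045).

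The 7 cytosolic genes with the response element letters had a median log2 fold change of 1.33 at 48 h, with values from 0.91 to 2.24 and 5 called. The 9 with a window but without the letters had a median of 0.86, with values from -0.35 to 2.16 and 2 called. At 72 h without replicate 3 the medians were 1.77 and 1.27, with 7 of 7 and 8 of 9 called. With TMM scaling none of the 7 cytosolic genes with the letters had an estimate below 0.62 in OVCAR-3 at either time. With library totals at 72 h, however, MARS1 was at 0.24, IARS1 at 0.45 and NARS1 at 0.52. YARS2, the mitochondrial gene with the letters, had log2 ratios between same-numbered libraries of -0.16 and -0.34 at 48 h. At 72 h its ratios were 0.07, 0.27 and 0.19 in replicates 1, 2 and 3. SARS1 and WARS1, without the letters, were among the highest. In CAOV3 and SKOV3 the medians were 0.03 and 0.05 with the letters, and 0.11 and -0.05 without them.

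Genes of neighbouring steps were read from lists made by function. At 48 h in OVCAR-3, 6 of 11 regulators of the amino acid stress response rose and none fell, against 11.3% of all genes called higher and 7.63% lower. The regulators were led by TRIB3 (log2 fold change 5.15), a pseudokinase induced by ATF4, and DDIT3 (4.53), the transcription factor CHOP. TRIB3 was at 1076 and 1124 CPM with GSK-J4 and at 29.7 and 32.3 CPM with GSK-J5. At 72 h it was at 1109, 1167 and 343 CPM with GSK-J4 in replicates 1, 2 and 3, and at 36.7, 32.8 and 195 CPM with GSK-J5. With GSK-J5, TRIB3 was thus higher in replicate 3 than in the other libraries, as were SARS1 and WARS1, but TRIB3 remained higher with GSK-J4 in that replicate while SARS1 was about equal. DDIT3 was lower with GSK-J4 in replicate 3, at 18.7 CPM against 23.6 CPM with GSK-J5. In replicates 1 and 2 it was at 89.0 and 51.9 CPM with GSK-J4 and at 4.59 and 4.50 CPM with GSK-J5. The amino acid synthesis gene ASNS was also lower with GSK-J4 in replicate 3, at 1.09 against 2.24 CPM, on few counts. The part of this response in the synthetase levels was not tested.

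ATF4 mRNA itself was at 461 and 392 CPM with GSK-J4 at 48 h and at 233 and 241 CPM with GSK-J5. At 72 h it was at 792, 683 and 333 CPM with GSK-J4 and at 262, 239.6 and 371 CPM with GSK-J5. It was thus higher with GSK-J4 in every first-set library and lower with GSK-J4 in replicate 3.

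Amino acid transporters rose in 6 of 8 cases at 48 h, against 11.3% of all genes called higher. They were led by SLC6A9 (3.66), a glycine transporter, and SLC3A2 (3.09), the heavy chain of several transporters. Amino acid synthesis genes rose in 4 of 11 cases, led by ASNS (3.60), asparagine synthetase, and PYCR1 (2.22), which makes proline. ASNS held 200 and 174 counts with GSK-J4 and 11 and 24 counts with GSK-J5, so its fold rests on few counts. Both tRNA transport genes rose, XPOT, the exportin of tRNA, by 1.98 and XPO5 by 1.35. QRSL1, a subunit of the mitochondrial glutaminyl-tRNA amidotransferase, rose by 1.48 and was called alone among 9 tested genes of tRNA editing and amidation. None of the 14 tested translation factors of the cytosol and mitochondria was called at 48 h by edgeR, while 7 had an unadjusted p under 0.05, a share near that of all genes. DESeq2's Wald test called 4 higher and 1 lower, against 16.9% and 16.8% of all genes, and limma voom called 1 higher, against 13.4%. At 72 h without replicate 3, edgeR called 6 of 6 tested cytosolic translation factors higher (median log2 fold change 1.92). Of 7 mitochondrial ones it called 5 higher and 1 lower, against 34.6% and 37.1% of all genes. The OVCAR-3 effect exceeded that in CAOV3 for 4 of 6 cytosolic and 2 of 8 mitochondrial factors (13.2% of all genes). Against SKOV3 these were 4 of 6 and 4 of 8 (13.5%). At 72 h edgeR called none of 56 list genes tested in OVCAR-3 with all libraries, none of 56 in CAOV3 and none of 57 in SKOV3. Unadjusted edgeR p-values were under 0.05 for 30, 16 and 5 of them, against 44.3%, 16.8% and 3.56% of all genes. DESeq2's Wald test called 27 higher and 5 lower in OVCAR-3, against 20.5% and 18.8% of all genes. It called 3 higher in CAOV3, against 1.79% of all genes, and none in SKOV3. Limma voom called 1 higher in CAOV3, against 1.00% of all genes, and none in the other lines.

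Other measures moved with the compound in OVCAR-3. The 4 epithelial markers summed to 3668 and 3809 CPM with GSK-J4 at 48 h and to 7198 and 7287 CPM with GSK-J5. Mitochondrial ribosomal RNA genes took 0.415% and 0.275% of counts with GSK-J4 at 48 h and 0.0736% and 0.0694% with GSK-J5, and between 0.257% and 0.381% with GSK-J4 at 72 h and between 0.032% and 0.096% with GSK-J5. The number of genes with at least 10 counts was 14680 to 16231 with GSK-J4 at 72 h and 16444 to 16504 with GSK-J5. The part of these measures in the synthetase results was not tested.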

How the data were processed

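The authors deposited raw read counts per gene in 3 tables of 58825 versioned Ensembl identifiers, 1 table for each cell line, with 22 libraries from 14 samples. STAR, DESeq2 and the build GRCh38 are named, without version or role, per the submitters' processing notes. How reads were counted, with which strand setting and which annotation, is not given in the sources used here. One OVCAR-3 column whose name gives 73 was taken for replicate 3 of GSK-J4 at 72 h. Gene names and coordinates come from GENCODE 29 and a table of gene names, and 8 identifiers had no name.

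Counts were tested with edgeR 4.0.16 in R 4.3.3 (robust quasi-likelihood test, TMM scaling, filterByExpr with a minimum count of 10, library set as a covariate), with Benjamini-Hochberg adjustment over all genes tested and a threshold of 0.05. The 48 h effect and the difference between times came from a fit of the 10 OVCAR-3 libraries. Each 72 h effect came from the 6 libraries of its line, and differences between lines came from the 18 libraries of 72 h. The tests were tried on simulated data. Alternatives were DESeq2 1.42.0, limma 3.58.1 voom, other scalings, no filter, no library set term, a replicate block, other sets of libraries, and each library or replicate left out.

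Genes given in full were the 3 called members with the largest and the 3 with the lowest change in each set, or, where none was called, the 3 with the largest absolute change, and from each related list the 2 called genes with the largest change. Other members whose libraries illustrate a comparison were added after their values were seen. The members and lists were chosen with earlier results of these data known. Counting error is small at this depth, since 3 counts equal 0.079 to 0.125 CPM. This floor covers counting error only. Same-numbered libraries deviated together in SKOV3, with correlations of 0.645, 0.655 and 0.890, and the block changed no call there. Replicates 1 and 2 of SKOV3 also correlated across numbers, by 0.537 and 0.544, so this was not particular to shared numbers. No pair of libraries agreed within sampling noise. Ratios between same-numbered libraries used a pseudocount of 0.1 CPM. Named pseudogenes exist for 11 members, and reads could be shared with them.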

Additional observations from a re-analysis of the deposited data

Results flagged for a closer look

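The results below are members whose compound effect at 72 h differed between lines in the edgeR fit of 18 libraries, as log2 differences of the GSK-J4 over GSK-J5 effect. Both sets use the same OVCAR-3 libraries, and the part of the OVCAR-3 library sets in them was not tested beyond leaving replicates out.

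For OVCAR-3 minus CAOV3, the difference was 1.65 for SARS1, 1.63 for YARS1, 1.55 for CARS1, 1.49 for WARS1, 1.40 for KARS1, 1.32 for EPRS1, 1.28 for AARS1 and 1.17 for TARS1. It was 0.92 for NARS1, 0.84 for FARSB, 0.77 for VARS1 and 0.77 for LARS1. Of the mitochondrial genes, WARS2 differed by 0.98 and TARS2 by -1.10.

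For OVCAR-3 minus SKOV3, the difference was 1.72 for SARS1, 1.61 for YARS1, 1.55 for WARS1, 1.54 for KARS1, 1.43 for CARS1, 1.25 for AARS1, 1.21 for EPRS1 and 1.16 for TARS1. It was 0.96 for FARSA, 0.88 for NARS1, 0.86 for VARS1, 0.70 for LARS1, 0.57 for QARS1 and 0.55 for MARS1. Of the mitochondrial genes, WARS2 differed by 1.29 and TARS2 by -1.09.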

How the results depend on the processing

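No member called in the main edgeR fits changed sign under any alternative run. HARS1, called higher at 72 h in OVCAR-3 only when replicate 3 or other choices changed the fit, stood at -0.22 with library totals in replicates 1 and 2, without a call. At 48 h in OVCAR-3, where 8 synthetases were called higher and 0 lower, DESeq2's Wald test gave 13 and 1 (16.9% and 16.8% of all genes), the fit of the 4 libraries of 48 h alone gave 22 and 7 (30.7% and 31.2%), the fit without the library set term gave 2 higher (3.53%), and the replicate block gave 1 higher (2.74%). Leaving out single libraries or replicates gave 0 to 22 higher and 0 to 7 lower. The largest counts came without replicate 3 of 72 h and the zeros without any one 48 h library, where no gene at all was called. HARS1, QARS1 and PARS2, none of them called, had estimates of -0.20, -0.15 and -0.14 with library totals.

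At 72 h in OVCAR-3, where 0 were called, DESeq2's Wald test gave 20 higher and 3 lower, the fit of 10 libraries 20 and 4 (22.9% and 20.9% of all genes), the fit of 18 libraries 21 and 6 (21.2% and 19.1%), library totals in replicates 1 and 2 gave 18 and 11, and the fit without the low-count filter 1 higher (3.41%). Leaving out replicates gave 0 to 22 higher and 0 to 6 lower, all of the calls arising without a library of replicate 3. In CAOV3 leaving out replicates gave 0 to 2 higher and 0 to 1 lower. For 72 h minus 48 h it gave 0 to 13 higher and 0 to 5 lower.

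For OVCAR-3 minus CAOV3, with 13 higher and 1 lower, the counts were 6 and 2 with library totals, 5 and 0 without the library set term (3.25% and 0.285% of all genes), and 3 and 0 with the replicate block (5.44% and 0.872%), while the lower count was 4 by DESeq2's Wald test, 2 with DESeq2 size factors and 2 without the filter. Leaving out replicates gave 0 to 20 higher and 0 to 6 lower, the largest counts without replicate 3 (20.0% and 21.5% of all genes). For OVCAR-3 minus SKOV3, with 15 higher and 1 lower, 9 were higher with library totals (6.31% of all genes). The counts were 5 and 0 without the set term (3.64% and 0.498%), and 4 and 0 with the replicate block (4.73% and 0.866%). The lower count was 2 by DESeq2's Wald test (14.6%) and 2 without the filter (6.96%). Leaving out replicates gave 0 to 21 higher and 0 to 6 lower, the largest counts without replicate 3 (20.2% and 21.9% of all genes). The cause of these shifts was not tested.

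The replicate block rests on shared numbers in OVCAR-3 and CAOV3. Same-numbered libraries correlated by 0.233 in OVCAR-3 at 48 h, with 2 pairs, by -0.073 to 0.0382 in OVCAR-3 at 72 h and by 0.0723 to 0.409 in CAOV3. Of single-gene results under settings that left no replicate out, 45 of the 48 h calls held and 19 missed the threshold, 57 and 27 did for OVCAR-3 minus CAOV3, and 67 and 29 for OVCAR-3 minus SKOV3. With a library or replicate left out, 37 held and 67 missed it at 48 h, 14 and 28 against CAOV3, and 16 and 32 against SKOV3.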
